A study of Equus caballus with 19 samples.

Results

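The genes of the plasminogen activator system were followed in equine tenocytes kept in 3D collagen gels. The members were 6 genes, taken by name from the deposited tables of 29196 gene names: the proteases PLAU (urokinase) and PLAT (tissue plasminogen activator), the urokinase receptor PLAUR, and the serpins SERPINE2, SERPINB2 and SERPINF1. Of these, 5 had a row in both tables and all 5 passed the filter on low values in both batches, whereas SERPINE2 (protease nexin) had no row under its symbol and was not analysed here. The tenocytes were adult cells of wild-type genotype from the superficial digital flexor tendon, each line from an individual horse, and every group was cultured in gels of bovine type I collagen for 14 days. In the first batch, 5 lines (lines 1 to 5) were given 1 nM IL-1β or no cytokine (control), which made 10 libraries. In the second batch, 3 other lines (lines 6 to 8) were kept as control, with 1 nM IL-1β, or with 1 nM IL-1β together with 100 ng/ml of the receptor antagonist IL1Ra, which made 9 libraries. Cells expanded in culture and set in a gel lack the other cells and the loading of a tendon, which limits them as a model of it.

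Urokinase and tissue plasminogen activator are serine proteases that cut plasminogen into plasmin, which degrades fibrin and pericellular matrix proteins and can activate latent matrix metalloproteinases. Urokinase is held at the cell surface by its receptor, and both activators are blocked by serpins, proteins that trap a protease by a covalent bond. SERPINB2 is a plasminogen activator inhibitor, and SERPINF1 (pigment epithelium-derived factor) has the serpin fold but does not inhibit proteases. In fibroblasts these genes are known as regulated by inflammatory cytokines and growth factors, and their products take part in matrix turnover and wound repair.

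Values are normalised counts, the authors' read counts per gene after their normalisation with the program DESeq2. Each batch was normalised apart, so no test crosses the batches. The sums of normalised counts were 43.4 M to 49.2 M (M for counts × 1e6) per library in the first batch and 25.0 M to 34.6 M for the second, and the raw read depth is not known from these values. A gene was called differentially expressed (DE) at a Benjamini-Hochberg adjusted p under 0.05 over all genes tested, from limma on log2(normalised count + 1), provided that the log2-fold change was 1 or more in size. Fold changes are on that scale, which understates the change of low genes, and ± marks the SD over lines. Because gene lengths were not at hand, levels were compared between conditions and lines and not between genes. In these bulk libraries, fewer cells of a type and less RNA per cell cannot be told apart.

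Of the 10 tenocyte markers listed, 9 had a row and 8 reached 10 normalised counts in at least 1 library of each condition. The sum over the 9 markers was 1074940.0 to 1811600.0 in the first-batch controls and 427885 to 855985 with IL-1β. SCX, a tendon transcription factor, had 822 to 2110 normalised counts in the first-batch controls and 9.69 to 205 with IL-1β, whereas TNMD, the membrane protein tenomodulin, was listed at 0 in every first-batch library. DCN, the matrix proteoglycan decorin, went the other way, with a median of 59314 in control and 117019 with IL-1β in the first batch and of 42147 and 135436 in the second, and each other marker listed above 0 in the first batch had a lower median with IL-1β. Among the 8 leukocyte markers the sum was 58.3 to 181.6 in control and 299 to 1387 with IL-1β in the first batch, of which CD68 alone made 56.4 to 173 and 296 to 1359, while PTPRC, the pan-leukocyte marker CD45, did not exceed 3.64. The sum over 6 endothelial markers was 26.3 to 59.3 in control and 14.7 to 85.8 with IL-1β, that over 5 smooth muscle and pericyte markers was 35915 to 123755 and 14165 to 33975, and that over 4 epithelial markers, mostly CDH1, was 1416 to 3906 and 21.8 to 544, with EPCAM at no more than 1.21. The second batch had leukocyte marker sums of 73.7 to 291 in control, 190 to 1790.0 with IL-1β and 125 to 1406 with IL-1β and IL1Ra, with PTPRC at no more than 6.46. Their part in the changes described here was not tested.

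**Figure D1:**
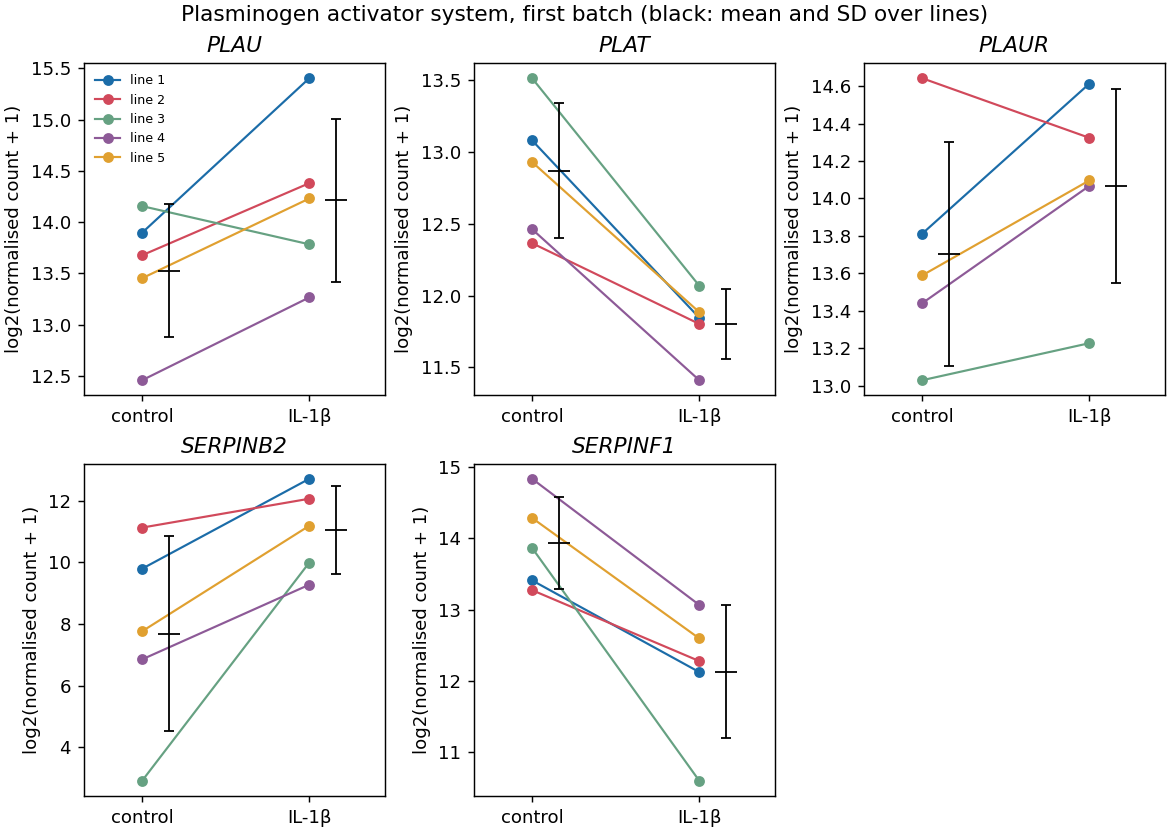
Normalised counts of the 5 members on a log2(count + 1) axis in the first batch, with 1 coloured line for each of the 5 tenocyte lines joining its control and IL-1β libraries, and black marks for the mean and SD. PLAT and SERPINF1 fell in 5 of 5 lines with no overlap between the groups, and SERPINB2 was higher with IL-1β in 5 of 5 lines from controls that ranged between 6.50 and 2231 normalised counts.

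In the first batch, PLAT and SERPINF1 were lower with IL-1β, the 2 members called of 5, where 12.8% of all genes tested were called. SERPINB2 was higher in every line, and it was called only when the fit had the tenocyte line as a block, which made 3 of 5 members called against 16.2% of all genes. The values of control and IL-1β libraries did not overlap for 2 of 5 members, PLAT and SERPINF1, against 19.5% of all genes. PLAU and PLAUR were higher in 4 of 5 lines each and passed the test in neither fit.

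PLAT, the activator best known for dissolving fibrin clots, had 8674, 5279, 11712, 5648 and 7812 normalised counts in the controls of lines 1 to 5. With IL-1β the same lines had 3680.4, 3573, 4295, 2722 and 3781. Every IL-1β library was lower than every control library, and the lines lay closer together with IL-1β (3610.2 ± 569, n = 5 lines) than in control (7825 ± 2601, n = 5 lines). The SD of the log2 values was 0.24 with IL-1β and 0.47 in control. In the second batch the order was the opposite, at 0.70 with IL-1β and 0.44 in control. The log2-fold change was −1.07 (limma, adjusted p = 0.00466, standard error 0.21), a 2.10-fold lower level, and ranged from −1.45 in line 3 to −0.56 in line 2. Without line 3 the change was −0.97 (adjusted p = 0.00759), which no longer reached the fold-change threshold.

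PLAU, the activator that works in pericellular proteolysis, had 15244, 13096, 18256, 5627 and 11212 normalised counts in the controls of lines 1 to 5. With IL-1β it had 43335, 21321, 14102, 9852 and 19222. Line 3 was lower with IL-1β and the other 4 lines were higher, most of all line 1, at 2.84-fold, and the groups overlapped. The log2-fold change was 0.68 (standard error 0.40, 95% confidence interval −0.21 to 1.58, adjusted p = 0.235 from limma). Once the line entered as a block the interval was 0.11 to 1.26 and the adjusted p was 0.0581, so PLAU was not called.

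PLAUR encodes the receptor that anchors urokinase to the cell surface. Over lines 1 to 5 its control libraries held 14377, 25567, 8364, 11117 and 12324 normalised counts, and the IL-1β libraries held 25052, 20506, 9593, 17165 and 17514. Line 2 had the highest control value and was the only one of the 5 lines that was lower with IL-1β. The log2-fold change was 0.36 (standard error 0.31, 95% confidence interval −0.33 to 1.06), with an adjusted p of 0.424 from limma.

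SERPINB2 encodes plasminogen activator inhibitor type 2, a serpin that is largely kept inside the cell and blocks urokinase. Over lines 1 to 5 the controls had 884, 2231, 6.50, 114 and 215 normalised counts, and with IL-1β it had 6693, 4272, 1017, 617 and 2327. The lines differed widely before any treatment, with line 2 at 343 times the level of line 3, whereas with IL-1β the highest line was at 10.8 times the lowest. The log2-fold change was 3.36 (limma, adjusted p = 0.0881, standard error 1.35), and within lines it ranged from 0.94 in line 2 to 7.09 in line 3. With the line as a block the standard error was 0.79 and the adjusted p was 0.0151, which made SERPINB2 DE. In that blocked fit the change was 2.43 (adjusted p = 0.00762) without line 3, and the call was kept without each of the other lines, at adjusted p up to 0.0491.

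The spread of SERPINB2 between lines was wide for a gene in these libraries. The SD of its log2 values over the 5 control lines was 3.15, larger than that of 99.6% of the genes tested, where the median gene had 0.28. With IL-1β the SD was 1.42, larger than that of 95.2% of genes. PLAU, PLAUR, PLAT and SERPINF1 had SDs of 0.47 to 0.65 in the first-batch controls, larger than those of 68.9% to 79.4% of genes. In the second batch the SD of SERPINB2 was 4.17 in control and 5.22 with IL-1β, so it was not narrower with IL-1β there. SERPINF1 in that batch also had a wide spread in control, with an SD of 2.24, larger than that of 95.5% of genes, and 0.34 with IL-1β.

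SERPINF1, whose product is known for restraining blood vessel growth and for binding collagen, had 10880.1, 9896, 14915, 29189 and 19954 normalised counts in the controls of lines 1 to 5. With IL-1β these lines had 4464, 4968, 1552, 8567 and 6189. No IL-1β library reached the lowest control, and line 3 fell furthest, from the middle of the controls to the lowest value of all, 9.60-fold. The log2-fold change was −1.80 (limma, adjusted p = 0.0127, standard error 0.44), a 3.48-fold lower level, and ranged from −3.26 to −0.99 within lines.

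**Figure D2:**
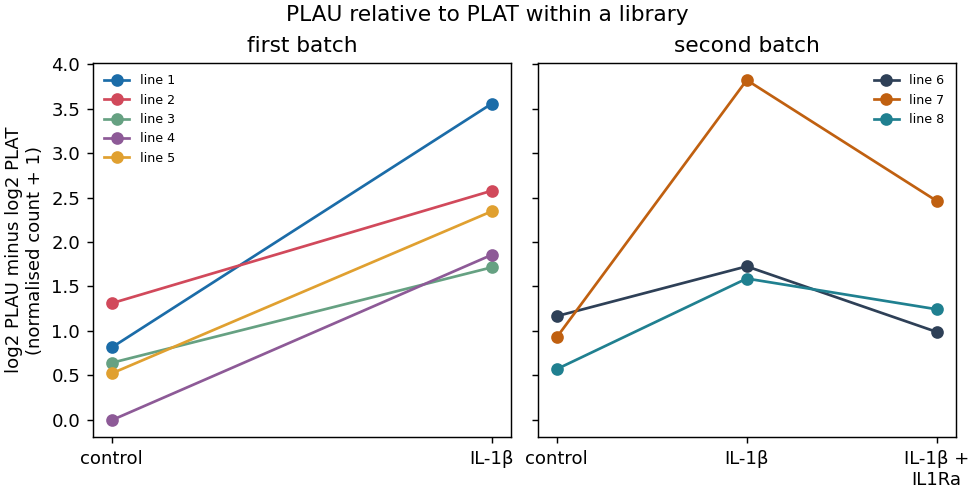
The difference between log2(normalised count + 1) of PLAU and of PLAT in each library, joined by tenocyte line (first batch left, second batch right). The height of a point depends on the lengths of both genes, so only its change within a line can be read, and it was higher with IL-1β than in control in 8 of 8 lines.

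Within each culture the balance of the 2 activators shifted towards PLAU with IL-1β. The log2 ratio of PLAU to PLAT was higher with IL-1β than in the control of the same line by 2.74, 1.27, 1.07, 1.86 and 1.82 in lines 1 to 5, a 2.11-fold to 6.70-fold shift. In line 3, where PLAU itself was lower with IL-1β, PLAT was lower by more. Lines 6 to 8 showed a shift of 0.56, 2.90 and 1.02 with IL-1β, and −0.18, 1.53 and 0.67 with IL-1β and IL1Ra. With IL1Ra line 6 lay slightly below its control ratio, and line 7 was still 2.90-fold above it. This ratio was chosen after the values were seen and was not tested.

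**Figure D3:**
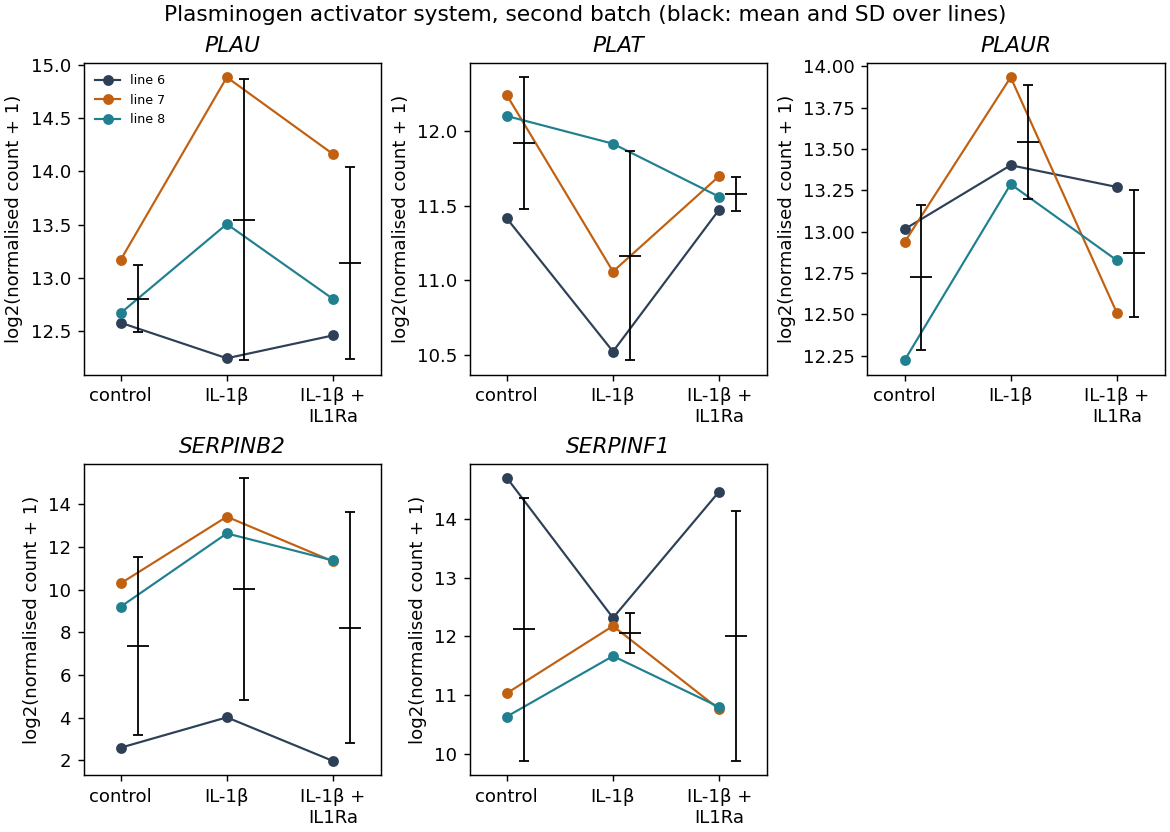
Normalised counts of the 5 members on a log2(count + 1) axis in the second batch, with 1 coloured line for each of the 3 tenocyte lines over control, IL-1β and IL-1β with IL1Ra, and black marks for the mean and SD. SERPINB2 was higher with IL-1β in 3 of 3 lines and lower again with IL1Ra in 3 of 3, but line 6 had at most 15.1 normalised counts. SERPINF1 went in opposite directions in line 6 and in lines 7 and 8.

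In the second batch, IL-1β against control gave no DE member of 5, and 0.341% of all genes tested were DE. With the line as a block 1 member, SERPINB2, was DE, against 5.18% of all genes. The groups did not overlap for 1 member, PLAUR, against 16.4% of all genes. Before adjustment 1907 genes had a limma p under 0.05, and PLAUR, among them, had an adjusted p of 0.349.

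PLAU in lines 6 to 8 had 6123, 9211 and 6522 normalised counts in control, 4862, 30172 and 11626 with IL-1β, and 5639, 18316 and 7147 with IL-1β and IL1Ra. Line 6 was lower with IL-1β, and lines 7 and 8 were higher by 3.28-fold and 1.78-fold and nearer to control with IL1Ra. The log2-fold change with IL-1β was 0.74 (limma, adjusted p = 0.794, standard error 0.67).

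PLAT had 2730.0, 4844 and 4396 normalised counts in the controls of lines 6 to 8. It had 1469, 2132 and 3865 with IL-1β, and 2844, 3324 and 3020.1 with IL-1β and IL1Ra. All 3 lines were lower with IL-1β than in their own control, line 8 by only 1.14-fold, but the groups overlapped. The log2-fold change of −0.75 (standard error 0.36, 95% confidence interval −1.57 to 0.07, adjusted p = 0.475 from limma) stands beside −1.07 in the first batch, and the difference was not tested, since each batch has its own lines and the 2 cannot be told apart. The blocked fit had a second-batch interval of −1.37 to −0.14 and an adjusted p of 0.144 from limma, so PLAT was not called.

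PLAUR had 8274, 7834 and 4774 normalised counts in control, 10821, 15648 and 9994 with IL-1β, and 9877, 5829 and 7263 with IL-1β and IL1Ra. The IL-1β libraries were all above the control libraries and above those with IL1Ra, although the last gap was narrow, between 9994 in line 8 and 9877 in line 6. The log2-fold change with IL-1β was 0.82 (standard error 0.30, 95% confidence interval 0.12 to 1.52).

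SERPINB2 had 5, 1256 and 587 normalised counts in the controls of lines 6 to 8, 15.1, 10989 and 6379 with IL-1β, and 2.89, 2567 and 2645 with IL-1β and IL1Ra. Line 6 stayed near 0 in every condition, so its ratios rest on a handful of reads, whereas lines 7 and 8 were 8.74-fold and 10.9-fold higher with IL-1β. The log2-fold change was 2.66 (limma, adjusted p = 0.868, standard error 3.45), and the SD between the 3 control lines was 4.17 on the log2 scale. With the line as a block the standard error was 0.48 and the adjusted p was 0.0246. That blocked call was lost without line 7 (2.43, adjusted p = 0.201) and without line 8 (2.28, adjusted p = 0.172), and without line 6 the gene was DE also in the fit with no block (3.28, adjusted p = 0.0235).

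SERPINF1 had 26596, 2093 and 1589 normalised counts in the controls of lines 6 to 8, 5093, 4629 and 3246 with IL-1β, and 22617, 1733 and 1778 with IL-1β and IL1Ra. Line 6 had by far the highest control of the batch and was 5.22-fold lower with IL-1β, and lines 7 and 8 were 2.21-fold and 2.04-fold higher. With IL1Ra each line lay near its own control, at a log2 difference of −0.23, −0.27 and 0.16. The mean log2-fold change with IL-1β was therefore −0.07 (limma, adjusted p = 0.993, standard error 1.25), and without line 6 it was 1.09 (adjusted p = 0.107).

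**Figure D4:**
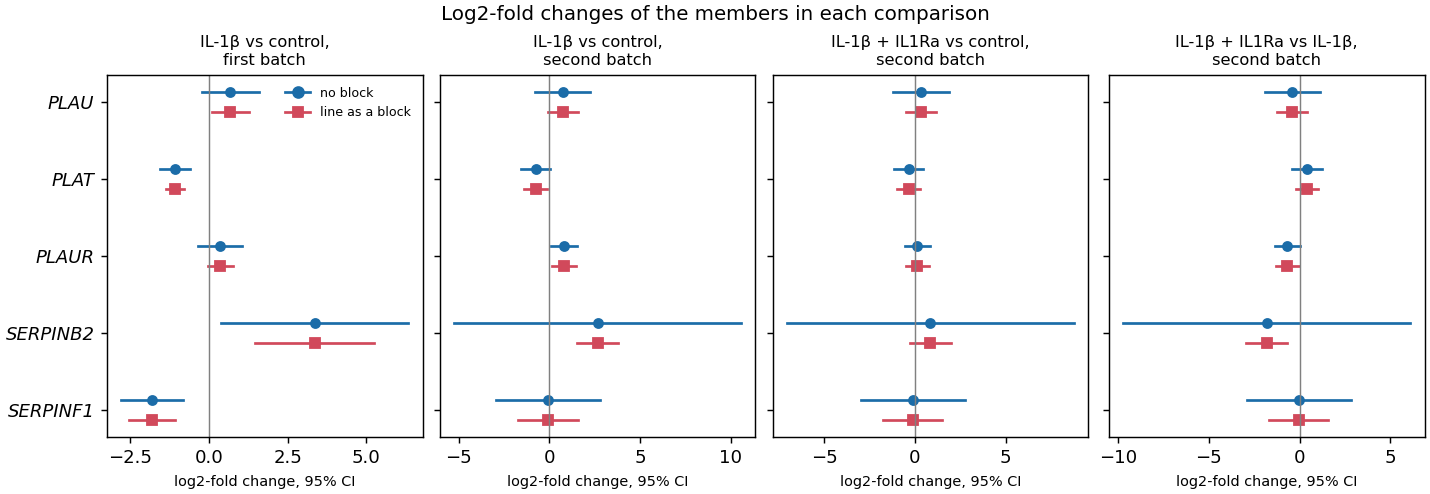
Log2-fold changes of the 5 members in the 4 comparisons, with 95% confidence intervals from limma without a block (blue circles) and with tenocyte lines as blocks (red squares), and an axis range of its own in each panel. The block shortens the interval of SERPINB2 in the second batch most, and 0 lies within every unblocked interval of the 2 panels at the right.

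The comparisons with IL1Ra ask how far the antagonist brings these genes back to control. Between IL-1β with IL1Ra and control, 0 of 5 members were DE, with or without the block, against 0.012% and 0.251% of all genes. The groups overlapped for all 5 members, against 11.8% of genes whose groups did not. Log2-fold changes were 0.33 for PLAU, −0.34 for PLAT, 0.14 for PLAUR, 0.86 for SERPINB2 and −0.11 for SERPINF1, each with an adjusted p of 1.000 from limma. Without the block, the 95% confidence intervals still hold changes of the size seen with IL-1β alone. They were, for example, −1.19 to 1.86 for PLAU, −1.16 to 0.48 for PLAT and −0.55 to 0.84 for PLAUR. With the block, the intervals of PLAU, PLAT and SERPINF1 hold such changes. Those of PLAUR (−0.50 to 0.79, against 0.82) and SERPINB2 (−0.26 to 1.98, against 2.66) do not.

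Between IL-1β with IL1Ra and IL-1β alone, 0 of 5 members were DE in either fit, where limma called 0% of all genes without the block and 0.00599% with it, and 464 genes had an unadjusted p under 0.05. PLAUR was lower with IL1Ra in 3 of 3 lines, by 1.10-fold, 2.68-fold and 1.38-fold in lines 6 to 8, and the log2-fold change was −0.67 (adjusted p = 1.000, standard error 0.30). It was the only one of 5 members whose groups did not overlap here, against 6.47% of all genes. SERPINB2 was also lower in 3 of 3 lines, 4.28-fold in line 7 and 2.41-fold in line 8, while line 6 was near 0 in both conditions. The log2-fold change of SERPINB2 was −1.81 (limma, adjusted p = 0.347 with the block, standard error 3.45 without it and 0.48 with it). PLAT was higher in lines 6 and 7 and lower in line 8. These comparisons share the 3 IL-1β libraries or the 3 control libraries with those above.

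Plasminogen itself and the proteins that bind it or clear its activators were represented by 11 genes, 9 of them tested in the first batch. None was called up and 2 of 9 were called down with IL-1β there, where 12.8% of all genes were called in either direction, with a median log2-fold change of −0.64, against −0.0034 over all genes. S100A10, which presents plasminogen at the cell surface with annexin A2, fell from 7675 ± 2744 to 2734 ± 1538 normalised counts (log2-fold change −1.59, adjusted p = 0.0243 from limma), a call that was lost without line 1, 2 or 5, at adjusted p up to 0.0970. VLDLR, a receptor that takes up complexes of urokinase and its inhibitors, fell by 1.37 on the log2 scale (adjusted p = 0.00562), and ANXA2 and the collagen receptor MRC2 passed the adjusted p with changes of −0.96 and −0.76, under the fold-change threshold. Without line 4 or line 5 ANXA2 was DE, at −1.10 and −1.04. PLG, the gene of plasminogen, was listed at 0 in each of the 10 first-batch libraries and reached at most 11.8 normalised counts in the second batch. There, 0 of 9 tested genes were called in any comparison.

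Among the 6 listed proteases that can activate urokinase's proform, 5 were tested in the first batch and 2 were called, both down, against 12.8% of all genes called. F12, coagulation factor XII, had a log2-fold change of −1.55 (adjusted p = 0.00589) and CTSL, the lysosomal protease cathepsin L, had −2.29 (adjusted p = 0.00682), where the list's median was −0.31. CTSL was low, at 38.1 to 230 normalised counts in the first-batch controls and 12.5 to 33.3 with IL-1β. In the second batch F12 was higher with IL-1β in 2 of 3 lines and lower in 1, and CTSL did not pass the filter on low values. The list of 4 inhibitors that are not serpins had 3 genes tested, a median of −0.58 and 1 call, SPINT2, against the same 12.8%. This Kunitz-type inhibitor fell from 1182 ± 819 to 204 ± 139 normalised counts (log2-fold change −2.49, adjusted p = 0.00425 from limma). SPINT2 was also lower with IL-1β in lines 6 to 8, 3 of 3, with a log2-fold change of −2.06 (adjusted p = 0.301, and 0.0214 with the line as a block, where it was called).

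In the list of 7 coagulation and protease receptor genes, 6 were tested in the first batch, 1 was called, against 12.8% of all genes, and the median was 0.08. F2R, the thrombin receptor PAR1, was DE in both batches without a block, the one gene of these lists that was. With the line as a block SPINT2, F2RL1 and SERPINB6 were also DE in both. It fell from 4512 ± 336 to 1348 ± 420 normalised counts in the first batch (log2-fold change −1.79, adjusted p = 1.06e-04 from limma, 5 lines) and from 4967 ± 1056 to 1376 ± 151 in the second (−1.84, adjusted p = 0.0266, 3 lines), and with IL-1β and IL1Ra it was at 2757 ± 634. The second call was lost without line 7 or 8 (adjusted p = 0.339 and 0.638) and with no variance trend (0.0517). Without line 7 or line 8, however, 0 of all 16907 and 0 of all 16717 genes tested were called. F2RL1, the receptor PAR2, had −1.78 in lines 1 to 5 and −4.11 in lines 6 to 8, called only with the line as a block (adjusted p = 0.0155 and 0.0212). Its values were low, at 23.1 to 131 normalised counts in control and 6.80 to 54.1 with IL-1β in the first batch. The second batch had 42.2 to 372 in control and 3.22 to 37.3 with IL-1β. TFPI, the inhibitor of the tissue factor pathway, was higher with IL-1β by 1.65 in the first batch, called with the block (adjusted p = 0.00185) and not without it (0.165).

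The tables held 27 further serpin genes, of which 12 were tested in the first batch and 10 were listed at 0 in all its libraries. None was called up and 3 of 12 were called down, against 12.8% of all genes called in either direction, with a median log2-fold change of −0.46. SERPINB6, an intracellular protease inhibitor, fell from 8019 ± 2623 to 2657 ± 491 normalised counts (log2-fold change −1.55, adjusted p = 6.92e-04 from limma). SERPINB5 (maspin) fell from 20.7 ± 5.61 to 4.17 ± 2.99 normalised counts, and SERPINF2, the plasmin inhibitor alpha-2-antiplasmin, fell from 47.1 ± 25.2 to 14.7 ± 6.92 (log2-fold change −1.57, adjusted p = 0.0346). The call of SERPINF2 was lost without line 1, 2, 4 or 5, at adjusted p up to 0.130, and with no filter on low values, at 0.0544. Of 11 serpins tested in the second batch, 0 were called without the block and SERPINB6 was called with it (−2.14, adjusted p = 0.0390), against 5.18% of all genes, and SERPINF2 was at 16.1 ± 3.26 in control and 15.6 ± 7.01 with IL-1β. For IL-1β with IL1Ra, 0 genes of these lists were called against control or against IL-1β, with or without the block. The second-batch median log2-fold changes with IL-1β were −0.06 for the plasminogen-binding and clearance list, −0.43 for the activating proteases, −1.90 for the inhibitors that are not serpins, −0.56 for the coagulation and receptor genes and −0.10 for the further serpins, against −0.0084 over all genes.

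**Figure D5:**
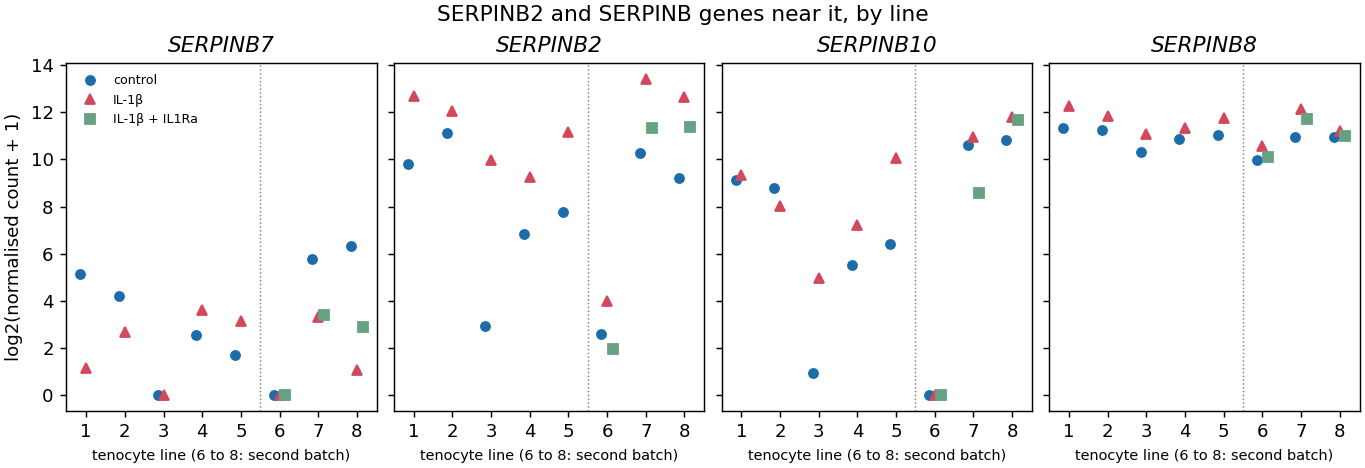
Log2(normalised count + 1) of SERPINB7, SERPINB2, SERPINB10 and SERPINB8 in each tenocyte line, with circles for control, triangles for IL-1β and squares for IL-1β with IL1Ra, and a dotted line between the separately normalised batches. All 4 genes had the lowest control of the batch in line 3 and in line 6, at or near 0 for the first 3 genes, while SERPINB8 was between 1001 and 2549.6 normalised counts in all 8 controls.

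SERPINB2 lies in a cluster of related serpin genes, in the order SERPINB7, SERPINB2, SERPINB10 and SERPINB8 in the RefSeq genes of a later horse assembly. SERPINB10 had 565, 443, 0.920, 45.5 and 85.2 normalised counts in the controls of lines 1 to 5, so it was lowest in line 3 as SERPINB2 was, and it was listed at 0 in all 3 libraries of line 6, where lines 7 and 8 had 1581 and 1843 in control. SERPINB7 was listed at 0 in line 3 and in line 6 in every condition, and reached 34.2 in the first-batch controls and 78.6 in those of the second. Its mean was 11.7 in control and 5.08 with IL-1β in the first batch, lower in lines 1 and 2 and higher in lines 4 and 5. In the second batch the mean was 44.1 in control and 3.37 with IL-1β, lower in lines 7 and 8. SERPINB5, called down in the first batch, lies before SERPINB7 on the same chromosome of that assembly. With IL-1β, SERPINB10 was higher in 4 of 5 first-batch lines (log2-fold change 1.75, 95% confidence interval −1.57 to 5.07, adjusted p = 0.420). SERPINB8, at the end of this row, was higher with IL-1β in all 8 lines, with a log2-fold change of 0.70 (adjusted p = 0.0523) in the first batch and 0.68 (adjusted p = 0.733) in the second. The counting could have split reads among these related genes, which was not tested and leaves their values uncertain. SERPINF1 and SERPINF2 are also neighbours in that assembly, and both fell in the first batch.

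For each member the 3 genes of most similar pattern were taken by Pearson's r of log2 values over the 10 first-batch libraries, among 12355 named genes tested in both batches, and r over the 9 second-batch libraries was set beside it. The libraries of a line share a donor, and the first r was the basis of the choice, so these are descriptions. For SERPINB2 the genes were ARPC1B, an actin-nucleating complex subunit (r = 0.98, and 0.44 in the second batch), NABP1 (0.97 and 0.88) and ST6GALNAC2, a sialyltransferase (0.97 and 0.93). For PLAU they were EMILIN1, an elastic fibre glycoprotein (0.94 and 0.74), UMPS (0.94 and 0.79) and RPN2 (0.93 and 0.77). For SERPINF1 they were FAM184A (0.98 and 0.44), GPC4 (0.98 and 0.72) and ACOXL (0.98 and 0.36). In the second batch r was lower for PLAT, with RPL3 (0.98 and 0.22), TSPAN33 (0.96 and 0.36) and RRAS2 (0.96 and 0.21), and for PLAUR, with TMEM39A (0.97 and 0.0023), USP14 (0.97 and 0.091) and MAP2K1 (0.96 and 0.36). The share of the 12355 genes with a lower second-batch r was 71.2%, 97.4% and 98.9% for the 3 genes of SERPINB2, in the order given. It was 88.2% to 91.7% for those of PLAU and 70.6% to 91.5% for those of SERPINF1. Those of PLAT had 70.7% to 82.3%, and those of PLAUR 44.9% to 73.8%.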

How the data were processed

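RNA sequencing was analysed in 19 libraries of 8 tenocyte lines. The signal values were deposited as normalised counts. The authors quantified reads on EquCab3.0 transcripts (Salmon), took gene totals (tximport) and normalised each batch (DESeq2 1.36 in R 4.2.1, per the labels). Whole reads could not be recovered, so no count model was fitted. Libraries were mapped to condition and line by their labels, and 0 columns were left unmapped.

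What was computed here started from log2(normalised count + 1), keeping genes that reached 10 in 5 or more first-batch libraries or 3 or more second-batch ones, which left 14719 and 16705 genes. The tool was limma 3.58.1 under R 4.3.3, using lmFit and a trended eBayes, and p-values were Benjamini-Hochberg adjusted over all genes tested, and the fit was tested on simulated data. Figures were drawn with matplotlib 3.10.9. Libraries of one line come from one horse, so the line numbers pair them: deviations from the condition means correlated at 0.35 to 0.58 within lines (5 pairs) in the first batch and 0.54 to 0.79 (9 pairs) in the second, against −0.36 to 0.29 (20 pairs) and −0.62 to 0.25 (18 pairs) between lines. The fit without a block was the main one. Alternatives were other pseudocounts, filters and scalings, no trend, 2 conditions only, the line as a block and leaving out each line.

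The members and the gene lists were chosen with earlier results of these data known. The genes named are the members, the members of the lists that were called or define the pathway, the markers, and the 3 genes most like each member in the first batch. ANXA2, MRC2, PLG, TFPI and the genes near SERPINB2 are also named, outside that rule, after their values were seen. No sequence or coordinate is given, since no genome of the authors' build was used here. A gene among the further serpins is not reported here.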

Additional observations from a re-analysis of the deposited data

How the results depend on the processing

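In the first batch the members' calls were the same with other pseudocounts, no filter, quantile normalisation, equal library sums and no trend, at 2 of 5, and with the tenocyte line as a replicate block 3 of 5 were called. Leaving out each line in turn, with the filter at 1 library fewer, gave 1 to 2 called members, the lowest without line 3. Over all genes the first batch held 1885 DE genes.

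In the second batch the paired fit, with the tenocyte line as a replicate block, gave 865 DE genes for IL-1β against control, where the fit without it gave 57, and 1 member in place of 0. It gave 42 in place of 2 for IL-1β with IL1Ra against control, and 1 in place of 0 against IL-1β. The share called up fell from 78.9% to 49.9% with the block and to 61.4% with equal library sums, which took the median of all genes from −0.0084 to −0.19 for IL-1β against control and from 0.0088 to 0.11 for IL1Ra against IL-1β. For IL-1β against control, 34 genes were DE with no variance trend and 34 with 2 conditions only. For IL-1β with IL1Ra against control the counts were 5 with quantile normalisation, 1 with equal library sums and 0 with 2 conditions only. Leaving out a line gave 0 to 364 DE genes and 0 to 1 members for IL-1β against control, 0 to 63 genes for IL-1β with IL1Ra against control, and 0 to 10 genes against IL-1β, in each case highest without line 6.

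Directions reversed for SERPINF1 and PLAUR, in the second batch only. Without single lines, SERPINF1 had −0.68 to 1.09 with IL-1β and −1.14 to 0.64 for IL1Ra against IL-1β, and PLAUR had −0.0855 to 0.43 for IL1Ra against control. SERPINF1 for IL1Ra against IL-1β was also 0.0207 with quantile normalisation and 0.0567 with equal library sums. The cause of these changes was not tested. The block changed no call of a member other than that of SERPINB2. Leaving out lines within the blocked fit was added after the data were seen.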

Other observations

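SERPING1, the complement inhibitor C1 esterase inhibitor, was chosen here after its values were seen. In the second batch it had 3591, 17564 and 31803 normalised counts in the controls of lines 6 to 8, 1756, 8082 and 4964 with IL-1β, and 6828, 77126 and 27839.9 with IL-1β and IL1Ra. All 3 lines were lower with IL-1β than in control and higher with IL1Ra than with IL-1β alone, by 3.89-fold, 9.54-fold and 5.61-fold. The log2-fold change for IL1Ra against IL-1β was 2.57 (adjusted p = 1.000 from limma, and 0.184 with the line as a block). In the first batch SERPING1 had 13619, 3032, 4038, 3042 and 2948 normalised counts in control and 5145, 5075, 4691, 3232 and 3156 with IL-1β, lower in line 1 and higher in the other 4 lines.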
